A study of Mus musculus with 4 samples.

Results

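Lgr5-positive stem cells outside mitosis are cells of mouse intestinal organoids that carried RNA of Lgr5 and little RNA of 6 mitosis genes. Lgr5 is the receptor for R-spondins that marks the stem cells at the crypt base. The cells were chosen from the counts themselves. A cell barcode was kept when at least 500 genes were detected in it. A kept cell was a member when it held at least 2 UMIs of Lgr5 (a UMI is 1 distinct captured RNA molecule), when Mki67, Top2a, Cenpf, Ube2c, Birc5 and Cdk1 summed to under 500 CPM (a gene's UMIs per 1e6 UMIs of that cell), and when it held under 2 UMIs of Atoh1, the factor that starts secretory fate. The rule found 358 members among 5429 kept cells (6.59%).

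The organoids were grown from the crypts of 2 mice, 10 weeks old, that carried loxP-flanked Cbl and Cblb (Cbl flox/flox; Cbl-b flox/flox) and R26Cre ERT2, a Cre driven from the Rosa26 locus that acts once 4-hydroxytamoxifen is given. The knockout libraries came from organoids that received 400 nM 4-hydroxytamoxifen for 3 days. The control libraries came from organoids of the same alleles that did not receive it, so the loss of Cbl and Cblb and exposure to the drug cannot be told apart. Each mouse gave 1 library of each group, and knockout 1 and control 1 share a mouse, as do knockout 2 and control 2.

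In the crypt, Lgr5-positive cells sit between Paneth cells, renew themselves under Wnt, Notch and EGF signals, and give rise to all other epithelial types. Cbl and Cblb encode ubiquitin ligases that mark activated receptor tyrosine kinases, EGFR among them, for uptake and degradation. The comparison asks what these stem cells express when both ligases have been deleted.

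Knockouts 1 and 2 held 154 and 86 members, and controls 1 and 2 held 108 and 10. Member UMIs summed to 3110014 and 1568407 in the knockouts and to 2810943 and 440391 in the controls. The median member had 19139.5 and 16439.5 UMIs in knockouts 1 and 2, against 23606.5 and 39907 in controls 1 and 2, so knockout members were less deeply covered than control members of the same mouse. Control 2 is the smallest sum, from 10 cells. No member barcode was shared between libraries, and 4 members were likely doublets.

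The label was checked on the other 3 stem cell markers, which the rule did not use. Olfm4, a secreted glycoprotein of crypt base cells, had a UMI in 94.2% and 86.1% of members of knockouts 1 and 2, and in 92.6% and 100% of members of controls 1 and 2. In cells with at least 2 UMIs of Alpi, an enterocyte enzyme, that share was 19.2% and 6.08% in the knockouts and 26.2% and 3.02% in the controls, at median depths of 8933 and 12123 UMIs in the knockouts and 16065 and 20383 UMIs in the controls. A UMI of Smoc2, a matrix protein of the crypt base, or of Ascl2, the Wnt-driven factor that maintains stem cell identity, was found in 330 of 358 members (92.2%). In the Alpi cells a UMI of Smoc2 was found in 1.37% and 3.87% (knockouts) and 9.93% and 0.503% (controls), and a UMI of Ascl2 in 1.37% and 0.552% (knockouts) and 2.84% and 2.51% (controls). Among cells with at least 2 UMIs of Chga, an enteroendocrine protein, Smoc2 had a UMI in 24.5% and 33.3% (knockouts) and 42.55% and 40% (controls). Among Lgr5-positive cells at or above the mitosis limit, those shares were 96.6% and 97.1% (knockouts) and 97.8% and 92.65% (controls). Smoc2 was therefore not particular to members. Only 10 members (2.79%) had no UMI of any of these 3 genes. A UMI of each of the 3 was found in 215 members (60.1%). That share was 63.6% and 39.5% in knockouts 1 and 2, and 69.4% and 80% in controls 1 and 2. At least 1 of the markers therefore fits the label in most members, and all 3 together in fewer.

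A minority of members carried high levels of markers of secretory cells. Summed levels passed 10000 CPM for 5 Paneth markers, 2000 CPM for 5 goblet markers, or 1000 CPM for 5 enteroendocrine or 5 tuft markers in 14 and 20 members of knockouts 1 and 2 and in 24 and 1 members of controls 1 and 2. In these 59 cells (16.5% of members), Olfm4, Smoc2 and Ascl2 together had a median of 333 CPM, against 3618 CPM in the other members. The 59 cells thus fit the stem cell label less well. They also moved the Paneth level of the whole library. The 5 Paneth markers, Lyz1, Defa17, Defa24, Itln1 and Mmp7, summed to 8156 and 28950 CPM in knockouts 1 and 2, against 19480 and 874 CPM in controls 1 and 2. Without the 59 cells they summed to 494 and 645 CPM in the knockouts and to 718 and 902 CPM in the controls. All 5 mesenchymal and all 5 erythroid markers stood at 0 UMIs in members. Of 5 immune markers only Ptprc was detected, and of 5 endothelial markers Cdh5 and Kdr stood at 0. Each result below that rests on these cells is given with and without them; the limits were set after the values were seen.

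**Figure D1:**
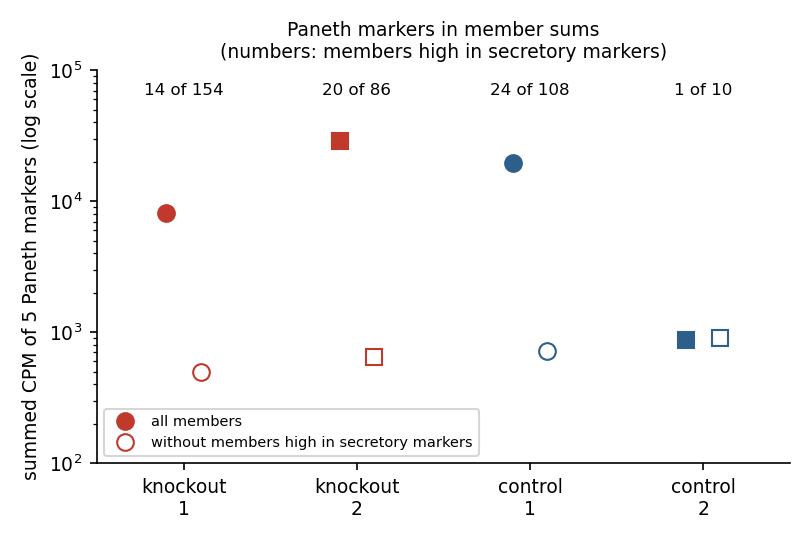
Summed CPM of 5 Paneth markers (log scale) in the member sums of each library, with all members (filled) and without members high in secretory markers (open). The figures at the top count those members; without them the 4 libraries lie between 494 and 902 CPM.

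The share of cells that were members differed more between the mice than between the groups. Members made up 9.33% (exact Clopper-Pearson 95% interval 7.97 to 10.8) and 4.45% (3.57 to 5.47) of kept cells in knockouts 1 and 2, against 9.31% (7.70 to 11.1) and 1.46% (0.701 to 2.66) in controls 1 and 2. In mouse 1 the knockout exceeded the control by 0.023 percentage points, and in mouse 2 by 2.99 points, where the intervals did not overlap. The difference of means was 1.51 points (two-sided exact permutation test, p = 0.667, where 2 against 2 libraries cannot go below 0.33). That test does not use the pairing by mouse. The difference of means turned to −0.94 without knockout 1 and to −2.42 without control 2, but leaving out 1 library breaks a pair and mixes group with mouse. Within mouse 1 the difference was near 0, so no difference between the groups was established over both mice. Intervals cover counting error only.

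Since a cell with more UMIs passes the Lgr5 limit more easily, every cell was also thinned to 10000 UMIs, and shallower cells were left out. The shares were then 6.56% and 3.14% in knockouts 1 and 2, against 6.60% and 0.587% in controls 1 and 2. The order of the 2 libraries of mouse 2 was kept, although control 2 then held 3 members. Among Lgr5-positive cells with low Atoh1, those outside mitosis made up 26.1% and 19.9% in the knockouts and 31.9% and 12.8% in the controls (difference of means 0.645 points, exact permutation test, two-sided, p = 1).

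**Figure D2:**
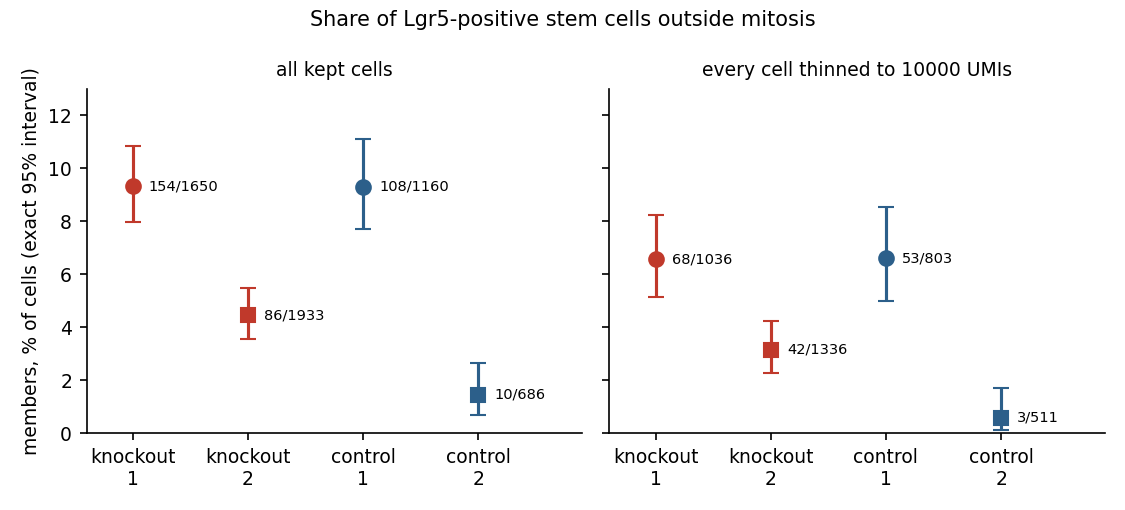
Members as a percentage of cells in each library, with exact 95% intervals, for all kept cells (left) and with every cell thinned to 10000 UMIs (right); the figures beside the points are members over cells. Knockout 1 and control 1 overlap in both panels, and control 2 lies lowest.

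The rule bears directly on members near its limits. Of the members, 146 held exactly 2 Lgr5 UMIs, while 261 further cells met every other criterion with exactly 1. Between 400 and 500 CPM of the mitosis genes lay 39 members, and 35 otherwise eligible cells lay between 500 and 600 CPM. Only 50 members had no UMI of any of the 6 mitosis genes. Replication genes were detected in members all the same. The 58 genes of DNA replication summed to a median of 4204 and 4117 CPM per member in knockouts 1 and 2, against 2604 and 4548 CPM in controls 1 and 2. In Lgr5-positive cells at or above the mitosis limit, the medians were 3628 and 3747 CPM (knockouts) and 3406 and 3660 CPM (controls). The rule therefore did not set members apart from cells in S phase.

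The stem cell markers themselves differed by mouse as well as by group. Lgr5 (chromosome 10, 115450311 to 115587780, GRCm38), which chose the cells and is given without a test, stood at 196 and 159 CPM in the member sums of knockouts 1 and 2, against 175 and 93.1 CPM in controls 1 and 2. Olfm4 (chromosome 14, 79984081 to 80023139) stood at 4420 and 1500 CPM in the knockouts and at 3373 and 686 CPM in the controls, higher in the knockout of each mouse but also higher in control 1 than in knockout 2. Its log2 fold change was 0.71 ± 0.17 (SE), which did not pass the threshold (edgeR quasi-likelihood test with mouse as a block, adjusted p = 0.691), and 46.0% of its UMIs in control 2 came from 1 cell.

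Smoc2 stood at 224 and 128 CPM in knockouts 1 and 2, against 198 and 170 CPM in controls 1 and 2, and the groups overlapped. Ascl2 stood at 89.1 and 53.6 CPM in the knockouts, against 89.6 and 102 CPM in the controls, and its log2 fold change of −0.43 ± 0.22 did not pass (edgeR adjusted p = 1.00). Of 36 tested genes of the crypt base list, 12 were higher in the knockout of both mice and 11 lower in both, and none passed. In the same direction in both mice stood 31.1% (higher) and 20.3% (lower) of all genes in the fit, so the list lay near the rest.

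The genes most like Lgr5 were sought beyond members. Over the 12 sums of members, Lgr5-positive dividing cells and Lgr5-negative cells outside mitosis in the 4 libraries, the highest Pearson correlations with Lgr5 on log2(CPM + 1) belonged to Cdk6 (0.987), which drives entry into S phase, and Mkl2 (0.987), a cofactor of serum response factor. Tcf7 (0.986), a nuclear effector of Wnt signalling, Mms22l (0.986), which acts in repair of stalled replication forks, and Meaf6 (0.986), a subunit of histone acetyltransferases, came next. These are descriptions of sums that share libraries and were sorted by Lgr5 itself, which is 0 by rule in the Lgr5-negative sums. Cdk6 stood at 176 and 142 CPM in members of knockouts 1 and 2 and at 157 and 134 CPM in members of controls 1 and 2. In Lgr5-negative cells it stood at 60.5 and 63.3 CPM in the knockouts and at 54.8 and 68.5 CPM in the controls.

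The targeted genes were too low in members to check the deletion there. Cbl gave 36 and 14 UMIs in knockouts 1 and 2 (11.6 CPM, exact Poisson 95% interval 8.11 to 16.0, and 8.93 CPM, 4.88 to 15.0), against 47 and 5 UMIs in controls 1 and 2 (16.7 CPM, 12.3 to 22.2, and 11.4 CPM, 3.69 to 26.5). It was lower in the knockout of each mouse, but the intervals overlapped, and its log2 fold change was −0.55 ± 0.36 (edgeR adjusted p = 1.00). Cblb gave 10 and 3 UMIs in the knockouts (3.22 and 1.91 CPM), against 17 and 0 UMIs in the controls (6.05 CPM in control 1), where the exact Poisson interval of control 2 reaches 8.38 CPM. Cblb was too low to enter the fit.

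In the larger class of Lgr5-positive dividing cells of the same libraries, both targeted genes fell (Cbl log2 fold change −1.10, edgeR adjusted p = 0.0124; Cblb −2.27, edgeR adjusted p = 0.0229). Cblc, the third family member, which was not targeted, stood at 28.0 and 42.7 CPM in members of knockouts 1 and 2, against 35.6 and 36.3 CPM in members of controls 1 and 2, and the groups overlapped. Egfr stood at 12.5 and 7.65 CPM in the knockouts, against 8.89 and 9.08 CPM in the controls, from 39, 12, 25 and 4 UMIs. Where the deleted exons lie relative to the sequenced tags is not given in the sources used here.

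With all 358 members, 1 gene of 9308 tested passed at an adjusted p of 0.05 (0.0107% called), and it rose. At an unadjusted p of 0.05, 139 genes were higher and 280 lower (4.50% of all genes in the fit), the DESeq2 and limma fits with the same block called 1 gene each, and the fit with the group alone called 0. Counts were also simulated at these depths, with the same spread for every gene and no difference between mice. The same fit then recovered 58.6% of changes of 1 and 100% of changes of 2, in log2, among genes above the median level. Real libraries vary in ways the simulation leaves out, so moderate and large changes alike could be missed.

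The gene was Gm14851 (chromosome 8, 21095074 to 21096050, minus strand), a protein-coding gene with 27 alpha-defensin genes or pseudogenes within 500 kb. It stood at 28.3 and 190 CPM in knockouts 1 and 2, against 1.42 and 6.81 CPM in controls 1 and 2, a log2 fold change of 4.46 ± 0.32 (edgeR adjusted p = 0.00121). Its counts came from few cells: 1 cell held 85.2% and 55.7% of its UMIs in the knockouts, and all 3 UMIs of control 2 came from 1 cell. Alpha-defensins are Paneth cell peptides with near-identical copies among which reads can be split. Without members high in secretory markers, Gm14851 was too low to be tested.

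Leaving out the 59 members high in secretory markers left 140 and 66 cells in knockouts 1 and 2 and 84 and 9 cells in controls 1 and 2. With these, 29 of 8753 genes passed in the fit with mouse as a block (0.331% called), 6 of them higher in the knockouts (0.0685%) and 23 lower (0.263%), and none of the 29 had passed with all members. The calls depended on the fit: with the group alone, with RLE size factors in place of TMM, and in DESeq2, 0 genes passed. All 29 kept their sign in those fits. Of the 29, Defa24 and Itln1 are Paneth markers whose summed level helped choose the cells left out, so their calls are not a test. Every fit of knockout against control that left out 1 library used the group alone, without mouse as a block. Values given without 1 library therefore mix group with mouse. In these fits the sign of Sis reversed without control 1 (5.77, log2). Unadjusted p-values under 0.05 were found for 8.13% of genes, 3.31% higher and 4.82% lower. The genes are therefore given below as higher or lower, with their values, and not as settled changes. Where a later paragraph does not say that all members were used, its values are from the members left after the 59 were removed. A wider rule, with Lgr5 at 1 or more UMIs, called 30 of 10101 genes (0.297%), 2 higher (0.0198%) and 28 lower (0.277%).

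Most tested genes of the p53 pathway, which halts the cycle or starts repair and death programmes, were higher in knockout members. This list, like the others, was chosen with earlier results of these data known. Counts over it therefore describe the data and do not test the pathway. Of 29 tested targets, 3 passed, all higher in the knockouts, as 0.0685% of all genes were. Of the 29, 21 were higher in the knockout of both mice against 35.9% of all genes, and the median log2 fold change was 0.55, against 0.0003 over all genes. With all members, 22 of 30 tested targets were higher in both mice (31.1% of all genes). Both knockouts lay above both controls for 20 (20.7% of all genes), and the median was 0.52. The list's summed level was 1987 and 2451 CPM in knockouts 1 and 2, against 1536 and 1788 CPM in controls 1 and 2.

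Cdkn1a (chromosome 17, 29090976 to 29100727), which encodes the cyclin-dependent kinase inhibitor p21, stood at 72.7 and 109 CPM in knockouts 1 and 2, against 30.4 and 18.9 CPM in controls 1 and 2. The knockouts lay above the controls without overlap, and the log2 fold change was 1.49 ± 0.24 (edgeR adjusted p = 0.0117, or 0.218 with the group alone). With all members it stood at 72.35 and 165 CPM in the knockouts, against 56.2 and 123 CPM in the controls, a log2 fold change of 0.35 ± 0.17 (edgeR adjusted p = 1.00). One secretory-marker-high member of control 2 held 85.2% of that library's 54 UMIs, and Cdkn1a was also lower in control 1 and in knockout 2 once the 59 were removed. The part of single cells in the difference was not tested.

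Gdf15, a stress-induced cytokine, stood at 28.8 and 41.2 CPM in knockouts 1 and 2, against 5.14 and 21.3 CPM in controls 1 and 2, a log2 fold change of 1.81 ± 0.36 (edgeR adjusted p = 0.0351). Without control 1, in a fit with the group alone, it was 0.57. Sulf2, which trims heparan sulfate on the cell surface, stood at 25.3 and 35.3 CPM in the knockouts, against 7.94 and 9.47 CPM in the controls, a log2 fold change of 1.64 ± 0.33 (edgeR adjusted p = 0.0368). Phlda3 (chromosome 1, 135766119 to 135769136), an inhibitor of Akt at the membrane, did not pass. It stood at 28.9 and 29.3 CPM in all members of knockouts 1 and 2, against 9.96 and 9.08 CPM in those of controls 1 and 2, a log2 fold change of 1.49 ± 0.30 (edgeR adjusted p = 0.691). Control 2 gave only 4 UMIs of Phlda3.

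Other targets lay on the same side without passing. Plk2, a kinase of the stress response, was at a log2 fold change of 1.46, Ccng1, cyclin G1, at 1.07, and Bax, which opens the outer membrane of mitochondria in apoptosis, at 0.50 (edgeR adjusted p = 0.0640, 0.0806 and 0.0691). Mdm2, the ligase that degrades p53, stood at 31.2 and 38.3 CPM in all members of knockouts 1 and 2, against 19.9 and 29.5 CPM in those of controls 1 and 2. In Lgr5-positive dividing cells of the same libraries, 10 of 31 tested targets rose and 1 fell, where 1.84% of 11180 genes rose. No target's knockout effect differed between members and dividing cells.

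**Figure D3:**
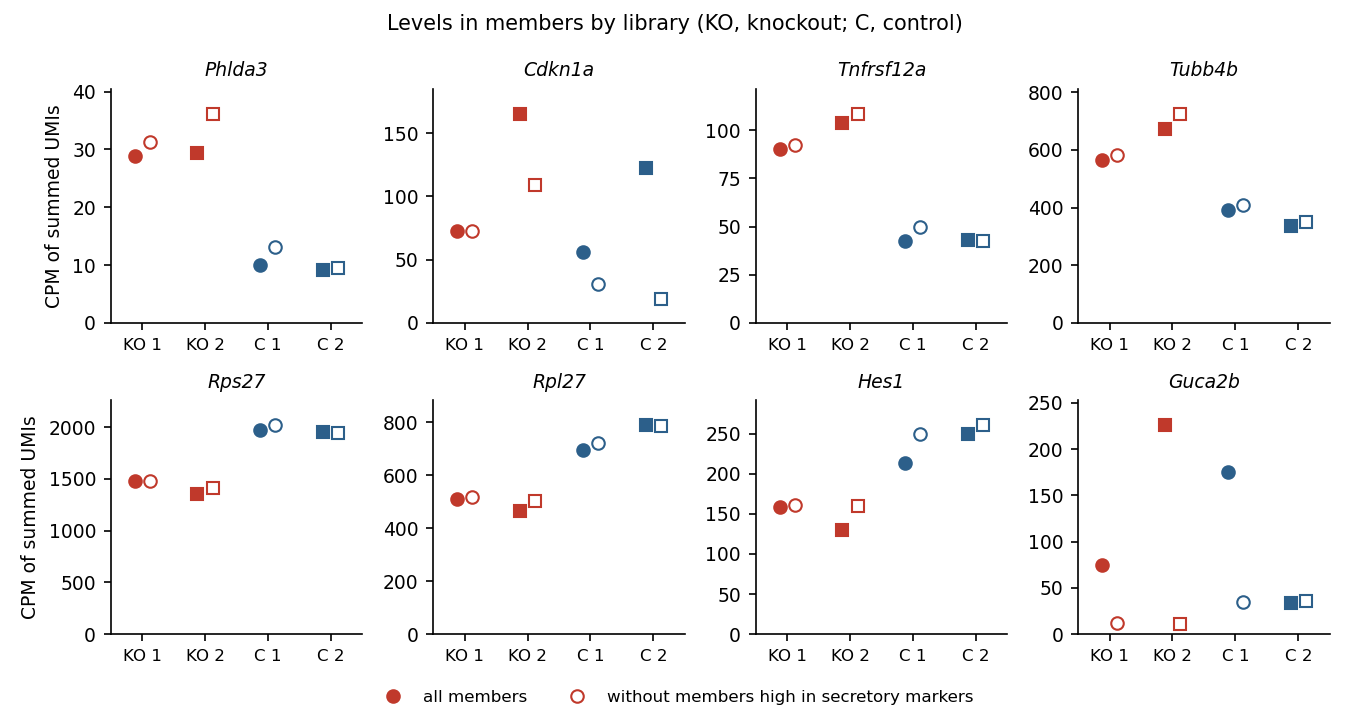
CPM of 8 genes in the member sums of each library (KO, knockout; C, control), with all members (filled) and without members high in secretory markers (open). Phlda3, Tnfrsf12a and Tubb4b lie higher and Rps27, Rpl27 and Hes1 lower in both knockouts with either set, while the filled points of Cdkn1a and Guca2b mix the groups.

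Messages of the cytosolic ribosomal proteins made up a smaller part of the RNA of knockout members. The 76 genes took a median of 29.9% and 29.3% of a member's UMIs in knockouts 1 and 2, against 32.5% and 32.7% in controls 1 and 2 (all members). Among members of 15000 to 40000 UMIs, the medians were 29.5% and 29.2% in the knockouts, against 33.2% and 31.7% in the controls, with 5 cells in control 2. This did not match depth. Median UMIs in the window were 20090.5 and 18693 in knockouts 1 and 2, against 25525 and 30854 in controls 1 and 2. They were closer than for all members in mouse 2 alone. These windows were set after the values were seen.

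Gene by gene, the ribosomal proteins lay on the same side. With all members, 61 of 76 were lower in the knockout of both mice, where 20.3% of all genes were, and both knockouts lay below both controls for 53, where 13.5% of all genes did. None passed with all members, 41 had an unadjusted p under 0.05 and were lower, against 3.01% of all genes, and the median log2 fold change was −0.21. The same median lay between −0.23 and −0.12 in the 18 other settings, the scaling alternatives among them. Without members high in secretory markers, 9 of 76 passed, all lower in the knockouts, against 0.263% of all genes.

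Rps27 (chromosome 3, 90212522 to 90213651), a protein of the small subunit, stood at 1480 and 1416 CPM in knockouts 1 and 2, against 2017 and 1939 CPM in controls 1 and 2, a log2 fold change of −0.52 ± 0.09 (edgeR adjusted p = 0.0117). Rpl27 (chromosome 11, 101442298 to 101445529), of the large subunit, stood at 519 and 503 CPM in the knockouts, against 722 and 784 CPM in the controls, a log2 fold change of −0.62 ± 0.10 (edgeR adjusted p = 0.0117). Rps12, of the small subunit, stood at 5318 and 5582 CPM in the knockouts, against 6737 and 6667 CPM in the controls, a log2 fold change of −0.37 ± 0.07 (edgeR adjusted p = 0.0351). In each of these genes the libraries of a group lay close together and the groups did not overlap.

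Rps21, Rpl36, Rps28, Rpl39, Rpl41 and Rpl35a passed as well, with log2 fold changes of −0.47 to −0.38. The difference was not the same for all ribosomal proteins: Rplp0, of the stalk, stood at 8179 and 7972 CPM in all members of knockouts 1 and 2, against 8205 and 8297 CPM in those of controls 1 and 2 (log2 fold change −0.08 ± 0.07, edgeR adjusted p = 1.00). Rpl36a, which the list did not hold, was at −0.41, but it shares near-identical sequence with Rpl36a-ps1, at −1.13, as Rps27 does with Rps27rt, at −1.18, so the split of reads within these pairs is uncertain.

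The ribosomal protein difference was not confined to members. In Lgr5-positive dividing cells the 76 genes took a median of 27.4% and 28.0% of UMIs in knockouts 1 and 2, against 30.4% and 29.45% in controls 1 and 2, and 30 fell and none rose, where 2.18% of 11180 genes fell (4.03% in either direction). In Lgr5-negative cells outside mitosis, a mixture of mostly differentiated cells, the medians were 17.2% and 15.2% in the knockouts, against 17.1% and 8.19% in the controls, and none of the 76 passed, where 0.0765% of genes rose and 0.0255% fell (0.102% in all). The knockout effect on no ribosomal protein gene differed between members and either of these classes.

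**Figure D4:**
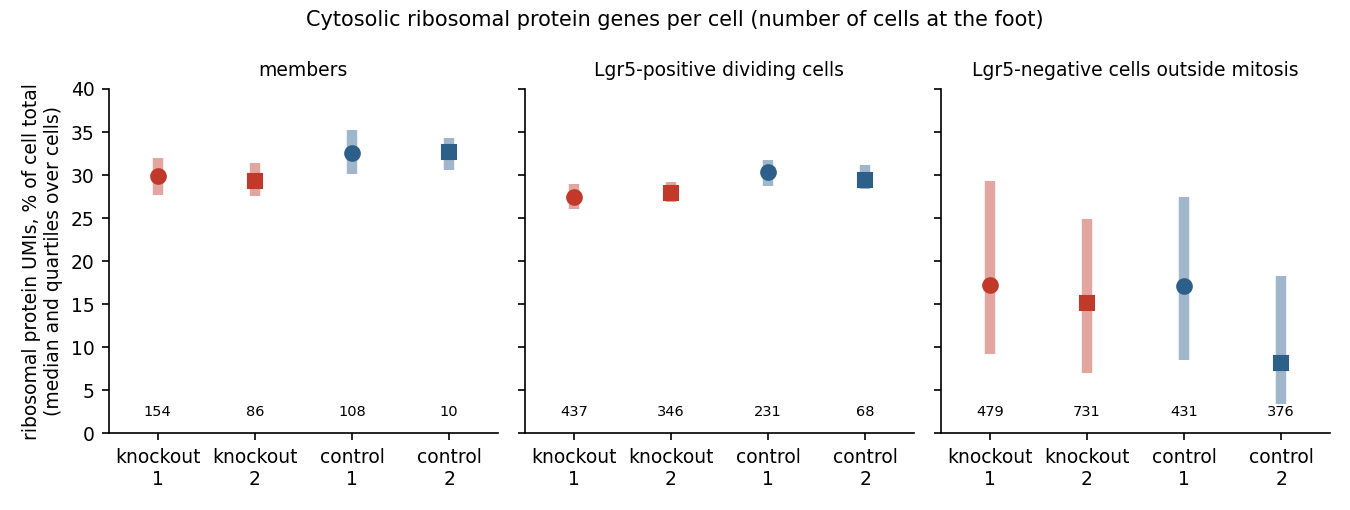
Share of each cell's UMIs from 76 cytosolic ribosomal protein genes, as the median (points) and quartiles (bars) over cells, per library and class; the figures at the foot count cells. Both knockouts lie below both controls in members and in dividing cells, and not in Lgr5-negative cells.

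Genes that build ribosomes were split by mouse, with a median log2 ratio of 0.41 in mouse 1 and −0.014 in mouse 2 (all members). Without members high in secretory markers both medians lay above 0, at 0.314 in mouse 1 and 0.062 in mouse 2. Of 38 genes of ribosome biogenesis and polyamine synthesis, 19 were higher in the knockout of both mice and 1 was lower with all members, where 31.1% and 20.3% of all genes were, and both knockouts lay above both controls for 18, where 20.7% of all genes did. None passed. The median log2 fold change was 0.17, and it was 0.021 without control 1. Srm, spermidine synthase, stood at 132 and 126 CPM in all members of knockouts 1 and 2, against 80.8 and 93.1 CPM in those of controls 1 and 2 (log2 fold change 0.54 ± 0.17, edgeR adjusted p = 0.927). Ncl, the nucleolar protein nucleolin, stood at 1507 and 1599 CPM in the knockouts, against 1159 and 1344 CPM in the controls (0.27 ± 0.11, edgeR adjusted p = 1.00). In dividing cells 10 of 38 rose and none fell, where 1.84% of all genes rose and 2.18% fell.

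**Figure D5:**
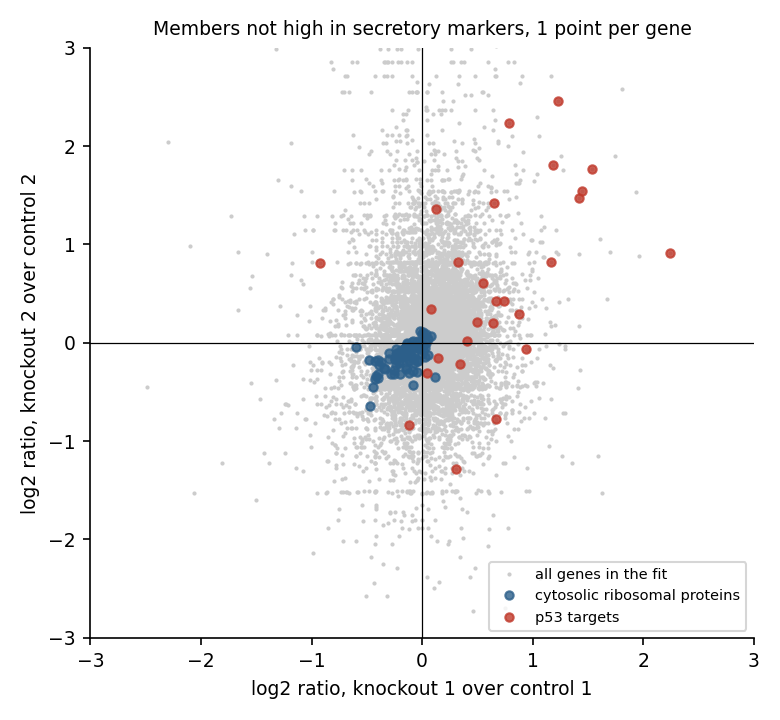
Log2 CPM ratio of knockout over control in mouse 1 (horizontal) and mouse 2 (vertical), members not high in secretory markers, 1 point per gene of 8760, with ribosomal proteins (76) and p53 targets (29) coloured; 47 genes, 2 of them p53 targets, lie outside the axes. Most ribosomal proteins lie below 0 in both mice and most p53 targets above.

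Replication genes were split in the same way with all members. Of 58 tested genes of S phase, 26 were higher in the knockout of both mice and 1 lower with all members, and none passed. Over all genes the shares were 31.1% and 20.3%. The median log2 ratio of the list was 0.46 in mouse 1 and −0.005 in mouse 2. Without members high in secretory markers it was 0.407 in mouse 1 and 0.103 in mouse 2. Gins1, a subunit of the replicative helicase complex, had the smallest p (23.5 and 19.1 CPM in all members of knockouts 1 and 2, against 11.4 and 13.6 CPM in those of controls 1 and 2; edgeR adjusted p = 0.972). Mcm2, another helicase subunit, stood at 109 and 88.6 CPM in the knockouts and at 78.6 and 54.5 CPM in the controls (log2 fold change 0.50 ± 0.19, edgeR adjusted p = 0.980). Of 16 tested histone genes, 8 were lower in the knockout of both mice and 1 higher with all members. Over all genes 20.3% were lower and 31.1% higher. The median log2 fold change was −0.27, but −0.036 and −0.002 with the mitosis limit at 250 and 1000 CPM, and 0.071 without knockout 1. The list summed to 3777 and 3675 CPM in the knockouts, against 3712 and 4080 CPM in the controls.

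Hist1h2bc, a histone H2B gene, stood at 69.2 and 54.6 CPM in knockouts 1 and 2, against 113 and 104 CPM in controls 1 and 2, without overlap. Its log2 fold change was −0.85 ± 0.17 (edgeR adjusted p = 0.0368), and it did not pass with all members (edgeR adjusted p = 0.691). Tubb4b, a beta-tubulin, stood at 581 and 724 CPM in the knockouts, against 410 and 350 CPM in the controls, a log2 fold change of 0.65 ± 0.12 (edgeR adjusted p = 0.0264). Of 9 tested tubulin genes, 7 were higher in the knockout of both mice with all members, where 31.1% of all genes were.

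Hes1 (chromosome 16, 30064384 to 30067796), the repressor through which Notch keeps crypt cells out of secretory fate, stood at 162 and 160 CPM in knockouts 1 and 2, against 250 and 260 CPM in controls 1 and 2. Its log2 fold change was −0.73 ± 0.13 (edgeR adjusted p = 0.0166), and −0.71 ± 0.16 with all members (edgeR adjusted p = 0.691). Hes1 was the only gene of 8 tested on the Notch list that passed. With all members, 3 of 10 tested were higher and 2 lower in the knockout of both mice, where 31.1% and 20.3% of all genes were. Notch1 stood at 24.1 and 12.1 CPM in all members of knockouts 1 and 2, against 24.9 and 20.4 CPM in those of controls 1 and 2. Hes1 fell in dividing cells (log2 fold change −0.40, edgeR adjusted p = 0.0168).

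Id1, a target of BMP signals, stood at 32.15 and 45.3 CPM in all members of knockouts 1 and 2, against 50.2 and 97.6 CPM in those of controls 1 and 2, and did not pass (log2 fold change −0.89 ± 0.21, edgeR adjusted p = 0.691). Id2 and Id3, of the same family, were at −0.04 and −0.02.

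Of genes near the deleted ligases, few could be resolved. Among 10 tested genes for EGFR-type receptors or their ligands, 4 were higher and 1 lower in the knockout of both mice with all members. Over all genes the shares were 31.1% and 20.3%, and none of the 10 passed. Areg, which encodes the EGFR ligand amphiregulin, had the smallest p and stood at 31.8 and 50.4 CPM in knockouts 1 and 2, against 11.7 and 31.8 CPM in controls 1 and 2 (log2 fold change 1.08 ± 0.29, edgeR adjusted p = 0.807). Erbb3, a receptor of the EGFR family without strong kinase activity, stood at 34.4 and 33.2 CPM in the knockouts, against 44.5 and 52.2 CPM in the controls (−0.53 ± 0.23, edgeR adjusted p = 1.00).

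With all members, 9 of 15 tested genes induced by ERK that dampen it were higher in the knockout of both mice and 1 lower. The shares over all genes were 31.1% and 20.3%. The list's median log2 fold change was 0.29, and none of its genes passed. Phlda1 had the smallest p, at 440 and 323 CPM in all members of knockouts 1 and 2, against 362 and 173 CPM in those of controls 1 and 2 (log2 fold change 0.52 ± 0.19, edgeR adjusted p = 0.972). Dusp6, a phosphatase of ERK, stood at 15.8 and 21.7 CPM in the knockouts, against 12.1 and 2.27 CPM in the controls, the last from 1 UMI. In dividing cells 5 of 17 tested genes of this list rose and none fell, where 1.84% of all genes rose.

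Of 17 tested genes of injury repair and the fetal-like gut state, 13 were higher in the knockout of both mice with all members. None was lower in both, where 31.1% of all genes were higher and 20.3% lower. The list's median log2 fold change was 0.44, but −0.30 with Lgr5 at 1 or more UMIs and −0.044 without knockout 2. Tnfrsf12a, the receptor of the cytokine TWEAK, stood at 92.3 and 108 CPM in knockouts 1 and 2, against 50 and 42.6 CPM in controls 1 and 2, without overlap, a log2 fold change of 0.94 ± 0.19 (edgeR adjusted p = 0.0410). With all members its log2 fold change was 1.09 ± 0.20 (edgeR adjusted p = 0.691). The list's summed level was 1530 and 3418 CPM in all members of knockouts 1 and 2, against 1360 and 2273 CPM in those of controls 1 and 2. Both libraries of mouse 2 lay above both of mouse 1.

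Ly6a, the surface protein Sca-1 that marks the fetal-like state, gave 16 and 135 UMIs in all members of knockouts 1 and 2, from 12 and 21 cells, and 0 UMIs in both controls. It did not pass (edgeR adjusted p = 0.0622). Taking 3 UMIs as the limit that a count of 0 allows, the controls may reach 1.07 CPM (control 1) and 6.81 CPM (control 2), beside 5.145 and 86.1 CPM in the knockouts. In dividing cells Ly6a stood at 11.2 and 46.2 CPM in the knockouts, against 4.61 and 60.3 CPM in the controls.

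Pthlh, which encodes parathyroid hormone-related protein, stood at 45.3 and 21 CPM in knockouts 1 and 2, against 14.02 and 9.47 CPM in controls 1 and 2, a log2 fold change of 1.52 ± 0.30 (edgeR adjusted p = 0.0351). Without knockout 1, in a fit with the group alone, it was 0.65. It rose in dividing cells (1.18, edgeR adjusted p = 0.00266). Of 21 tested genes of the unfolded protein response, 14 were higher and 1 lower in the knockout of both mice with all members. For all genes the shares were 31.1% and 20.3%. Hsp90b1, a chaperone of the endoplasmic reticulum, stood at 591 and 534 CPM in knockouts 1 and 2, against 422 and 359 CPM in controls 1 and 2 (log2 fold change 0.48 ± 0.14, edgeR adjusted p = 0.852).

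Among 25 tested genes of glycolysis, 16 were higher and 2 lower in the knockout of both mice with all members. For all genes the shares were 31.1% and 20.3%. Ldha, lactate dehydrogenase A, stood at 1304 and 1273 CPM in knockouts 1 and 2, against 1010 and 815 CPM in controls 1 and 2, without overlap (0.46 ± 0.13, edgeR adjusted p = 0.852). Of 39 genes of the respiratory chain, 4 were higher and 15 lower in both mice. With all members this list was split by mouse, with a median log2 ratio of 0.059 in mouse 1 and −0.168 in mouse 2. Without members high in secretory markers it was not split, at −0.024 in mouse 1 and −0.079 in mouse 2. Of the 39 genes, 7 were then higher and 19 lower in both mice. Of 18 genes of fatty acid oxidation, 2 were higher and 10 lower in both mice with all members. Acaa2, the last enzyme of that cycle, stood at 150 and 137 CPM in all members of the knockouts, against 196 and 184 CPM in those of the controls (−0.46 ± 0.15, edgeR adjusted p = 0.927).

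Genes of differentiated cells went both ways in the members left after the 59 were removed. Of 15 tested enterocyte markers, 3 were higher and 4 lower in the knockout of both mice, of 13 Paneth markers 3 and 4, and of 6 goblet markers 1 and 2, where 35.9% of all genes were higher and 19.5% lower. Agr2, a goblet cell protein that folds mucins, stood at 210 and 302 CPM in the knockouts, against 147 and 75.8 CPM in the controls. Lyz1, the lysozyme of Paneth cells, stood at 72.3 and 129 CPM in the knockouts, against 70.6 and 128 CPM in the controls. Those that passed were lower in the knockouts. Guca2a and Guca2b, the hormones guanylin and uroguanylin of mature epithelium, stood at 10.2 and 10.1 CPM (Guca2a) and at 11.6 and 10.9 CPM (Guca2b) in knockouts 1 and 2. In controls 1 and 2 they stood at 62.6 and 14.2 CPM (Guca2a) and at 35.0 and 35.5 CPM (Guca2b). The log2 fold changes were −2.26 ± 0.34 for Guca2a and −1.70 ± 0.29 for Guca2b (edgeR adjusted p = 0.0117 and 0.0154). Without control 1, in a fit with the group alone, Guca2a was at −0.57. With all members the groups overlapped, at 74.3 and 226 CPM of Guca2b in the knockouts, against 176 and 34.1 CPM in the controls.

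Sis, the brush border enzyme sucrase-isomaltase, had a log2 fold change of −3.77 ± 0.68 (edgeR adjusted p = 0.0190), with 1.40 and 10.1 CPM in the knockouts, against 82.2 CPM in control 1 and 0 in control 2. Its direction rested on control 1, without which the log2 fold change was 5.77 with the group alone. The Paneth genes Defa24 and Itln1 were at −0.78 ± 0.12 and −0.69 ± 0.13 (log2). Both belong to the 5 Paneth markers whose sum decided which cells were left out, so their calls are not a test. Defa24 stood at 199 and 268 CPM in knockouts 1 and 2, against 349 and 393 CPM in controls 1 and 2, levels far below those with all members (4577 and 16370 CPM in the knockouts, against 11700 and 384 CPM in the controls). The 5 enterocyte markers summed to 31.6 and 42.8 CPM in the knockouts and to 150 and 11.8 CPM in the controls, and the part these RNAs played in the calls was not tested. With all members, Chga, an enteroendocrine granule protein, came from 1 cell for 96.7% of its UMIs in control 1 and for all of them in control 2.

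With all members, the knockout effect was tested against that in Lgr5-positive dividing cells, which met the same rule except for 500 CPM or more of the mitosis genes. It differed for 18 of 10462 genes (0.172% called), with the effect higher in members for 16 (0.153%) and lower for 2 (0.0191%). With the replicate block in place of the library as a block, 1 passed, Tac1. Of the 18, 11 were Defa genes or Gm14851. Defa30, an alpha-defensin, stood at 1137 and 4910 CPM in all members of knockouts 1 and 2, against 2056 and 198 CPM in those of controls 1 and 2. In dividing cells it stood at 46.4 and 201 CPM in the knockouts, against 660 and 121 CPM in the controls. The effects differed by 3.28 ± 0.19 (log2, edgeR adjusted p = 3.85e-06), although in members the mice went opposite ways.

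Without cells high in secretory markers, 3 genes differed (0.0293% called), none of them among the defensins. The effect was higher in members for Ly6d and Ly6a, which encode surface proteins (0.0195%), and lower for Gm26917 (0.00976%). Ly6d gave 1 and 84 UMIs in all members of knockouts 1 and 2, against 2 and 0 UMIs in those of controls 1 and 2, and 1 cell held 81.0% of those in knockout 2. Against Lgr5-negative cells outside mitosis, with all members, 1 of 11129 genes differed (0.00899% called). It was Tac1, which encodes tachykinin precursors of enteroendocrine cells, at 0.32 and 0 CPM in members of knockouts 1 and 2, against 22.1 and 0 CPM in those of controls 1 and 2, so it rests on control 1, and with the replicate block 0 genes passed. Without the cells high in secretory markers, that gene was Ly6a in place of Tac1 (0.00948%). Apart from these, no gene's response to the knockout was shown to differ between members and the other cells.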

How the data were processed

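Single cells of dissociated organoids were captured on a droplet platform, per the labels' protocols. The deposited matrices hold whole-number UMI counts per gene and barcode, which the authors produced; the submitters' processing notes name Cell Ranger 3.0.1 and mm10, and the file headers name software version 3.0.0. Annotation release and strand setting are not given in the sources used here, so overlapping genes and near-identical copies are uncertain. Of 31040 features, 30921 matched GENCODE release 21 for mouse (GRCm38), which gave the coordinates.

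Of 5602 barcodes, 173 with under 500 genes were left out. Counts of member cells were summed per library, since cells are not replicates, and fitted with edgeR 4.0.16 (quasi-likelihood, TMM scaling, filterByExpr, mouse as a block, two-sided, Benjamini-Hochberg adjustment over all genes tested, threshold 0.05). At least 10 member cells per library were required, and 5 in alternatives added after the values were seen. The block leaves 1 residual degree of freedom, so the spread of a gene is largely borrowed from the others. Differences of effect between classes were tested as an interaction term, each library being a block. Genes the rule used were not tested. Genes of the limits on secretory markers were not held out of the fits without the cells past those limits. CPM values are of the sums and unscaled; within-mouse ratios add 2 counts per average library. Likely doublets were the highest Scrublet scores (scanpy), 0.8% per 1000 barcodes. Random steps used seed 1. The limits on secretory markers, and every fit without the cells past them, were chosen after seeing the data.

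The deposited files of each number carry 1 animal tag for both groups, so numbers pair the libraries; deviations from group means correlated at −0.016 between same-numbered member sums (9315 genes). Counts of the controls and of the knockouts differed beyond sampling noise (chi-square of 3.38 and 9.31 per degree of freedom). Tests on simulated data, with the same spread for every gene, made 4 false calls in 9091 genes.

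Members and the 45 lists of genes were chosen with earlier results of these data known. Genes were named by rule: up to 10 in each direction of the largest change or smallest p averaging 5 or more in log2 CPM, fixed genes of the study, 1 or more per list, 5 per interaction, and the 5 most like Lgr5. Further genes were named after their values were seen: those that passed without members high in secretory markers, and Plk2, Mdm2, Ncl, Mcm2, Rplp0, Notch1, Erbb3, Dusp6, Id2 and Id3.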

Additional observations from a re-analysis of the deposited data

Results flagged for a closer look

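Each value here was picked out because the knockout effect differed between members and other cells of the same libraries, by a test of the difference itself. Against Lgr5-positive dividing cells the effect differed for 18 genes. The 5 named by rule were Defa30 (3.28), Defa29 (4.16), Defa21 (3.87), Clps (2.07) and Defa22 (3.14), as log2 differences in which a positive value means a higher knockout effect in members. In members all 5 were lower in the knockout than in the control of mouse 1 and higher in the knockout of mouse 2. With the replicate block in place of the library as a block, none of these 5 passed and 1 gene, Tac1, did. None of the 5 passed once cells high in secretory markers were left out; those cells numbered 14 and 20 in knockouts 1 and 2 and 24 and 1 in controls 1 and 2.

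Against Lgr5-negative cells outside mitosis the effect differed for 1 gene, Tac1 (−6.62, log2), which in members was seen above 1 CPM in control 1 alone. With the replicate block, 0 genes passed in that comparison.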

How the results depend on the processing

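No direction between groups held in both mice for the share of members. Without 1 library each, which breaks a pair, the difference of means ran from −2.42 to 5.43 percentage points (−0.935 without knockout 1). Under other rules, thinning and filters it ran from 0.637 to 4.05. Within mouse 2 the knockout stayed higher under those, while within mouse 1 the difference was −0.468 with the mitosis limit at 250 CPM. The number of genes called with all members was 0 with no replicate block, 4 with RLE size factors, 47 without scaling, 72 without a filter on low counts, 30 and 6 with Lgr5 at 1 or 3 UMIs, 4 and 0 with the mitosis limit at 250 or 1000 CPM, 0 without doublets, 3 from 5000 UMIs, 29 without members high in secretory markers, and 0 to 3 with 1 library left out (group alone, the lone sample assumed to vary like the others).

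Of those 29 genes, 0 passed with no replicate block, 0 with RLE and 0 in DESeq2, while 114 genes passed without a filter and 88 in limma, and 16 to 79 without 1 library each. Differences from dividing cells numbered 43 without a filter, 1 with the replicate block, 1 in limma, 3 without secretory-high cells and 13 to 32 without 1 library each. Differences from Lgr5-negative cells numbered 50 without a filter, 0 with the replicate block, 0 in limma and 3 to 6 without 1 library each.

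Reversed log2 fold changes were Gm14851 at −1.92 (Lgr5 at 1) and −0.34 (mitosis 1000), Olfm4 at −0.45 (without knockout 1) and −0.25 (without control 2), Smoc2 at 0.088 (Lgr5 at 1), 0.15 (mitosis 1000), 0.19 (without knockout 2) and 0.02 (without control 1), Cblc at 0.26 (without knockout 1), Egfr at −0.062 (Lgr5 at 1) and −0.22 (without knockout 1), and Cdkn1a at −0.25 (mean CPM), −0.46 (mitosis 250), −0.22 (without knockout 2) and −0.093 (without control 1). Reversed list medians were −0.30 (Lgr5 at 1) and −0.044 (without knockout 2) for injury genes, 0.071 (without knockout 1) for histones, 0.093 (without knockout 2) and 0.17 (without control 1) for the crypt base and 0.078 (mean CPM) for xenobiotic genes. The causes were not tested. The p53 and ribosomal protein medians kept their sign in all 18 alternatives. A thinned gene fit was not run, since 3 members remained in control 2.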
